A study of Homo sapiens with 6 samples.

Results

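The genes described here drive DNA replication and mitosis. They are 38 named genes, 18 of the G1/S step and DNA synthesis and 20 of the G2/M step and chromosome segregation, and all 38 were found by symbol among the 32862 genes of the deposited table. RNA was measured by sequencing of oligo(dT)-selected libraries from SH-SY5Y, a dividing human neuroblastoma cell line grown in DMEM-F12 with serum. The series set cells in which OTULIN had been knocked out with CRISPR-Cas9 (KO) against wild-type cells (WT), and its title concerns the control of tau by OTULIN, a deubiquitinase that cleaves linear ubiquitin chains. There were 3 KO and 3 WT libraries, all untreated. Their titles and library names give no batch. Whether the KO cells were 1 clone or a pool is not in the labels, and neither is whether each replicate came from its own culture. The p-values below therefore reflect library-to-library spread, possibly technical.

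Dividing cells copy their genome once per cycle. In G1, the origin recognition complex, CDC6 and CDT1 load the ring-shaped MCM helicase onto DNA, and E2F transcription factors and cyclin E with its kinase then trigger S phase, in which PCNA clamps the polymerases to the fork. Cyclin A and cyclin B with CDK1 bring the cell into mitosis, where Polo and Aurora kinases build the spindle, and CDC20 with the anaphase-promoting complex ends mitosis by marking cyclin B for destruction. MKI67, TOP2A and many other genes of this set are used as proliferation markers in tumours, neuroblastoma included.

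The libraries differed in depth with the label. KO libraries held 725827 to 862932 counts and WT libraries 61772795 to 64352333, a ratio of the means of 78.5 (WT over KO), and 29202 genes of the table were at 0 in all 3 KO libraries, against 67 in all 3 WT libraries. OTULIN itself had 0, 0 and 0 counts in KO, against 1682, 2101 and 2155 in WT. Its absence is no check of the labels, because most genes were absent too. Depth and label cannot be told apart in any comparison below. Among genes that most cells use, chosen here after their values were seen, some were also low or missing. ACTB, cytoskeletal actin, had 5, 7 and 21 counts in KO against 395817, 377888 and 352387 in WT, and the ribosomal protein gene RPL6 and the chaperone gene HSP90AB1 had none in KO. EEF1A1, a translation factor, differed from these. It had 4317, 3894 and 4552 counts in KO against 559354, 600051 and 576782 in WT. Scaled to library totals, its mean was 1.72-fold lower in KO, where that of ACTB was 415-fold lower. Whether the KO libraries hold RNA sampled in the same way as the WT libraries cannot be told from the files, so every fold and bound below compares these libraries.

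Every member was lower in KO, and most were not seen there at all. All 18 G1/S members and all 20 G2/M members fell (adjusted p under 0.05 by the quasi-likelihood test of edgeR, largest 1.9e-04 for CDT1). Across the 10820 genes tested, those with a mean of at least 1 FPKM, 88.0% were called lower and 7.63% higher, so a fall was the common outcome in these libraries. Genes at 0 in KO, members included, reached that mean through WT alone, so a fall was the only direction open to them. With no filter, 13986 of 32862 genes were called lower and 809 higher. In 32 of the 38 members, 15 of G1/S and 17 of G2/M, all 3 KO libraries had 0 counts. The same held for 71.3% of all genes tested. In none of the 38 did KO and WT libraries overlap, which was also true of 96.2% of all genes tested. In bulk RNA, fewer dividing cells and less RNA of these genes per cell cannot be told apart.

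As a share of all counts, the members took 0.0177%, 0.0194% and 0.0265% in the KO libraries, against 0.751%, 0.783% and 0.790% in the WT libraries. The 18 G1/S members made up 0.0159% to 0.0223% in KO and 0.446% to 0.461% in WT. The 20 G2/M members made up 8.65e-04% to 0.00413% in KO and 0.306% to 0.329% in WT. At the WT share, 18584 member counts would have been seen over the KO group's 2398362, and 502 were. One gene, MCM4, gave 428 of these 502 counts (85.3%), and TOP2A gave 60 (12.0%). The other 36 members together gave the remaining counts, none of them with a count in more than 1 KO library.

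**Figure D1:**
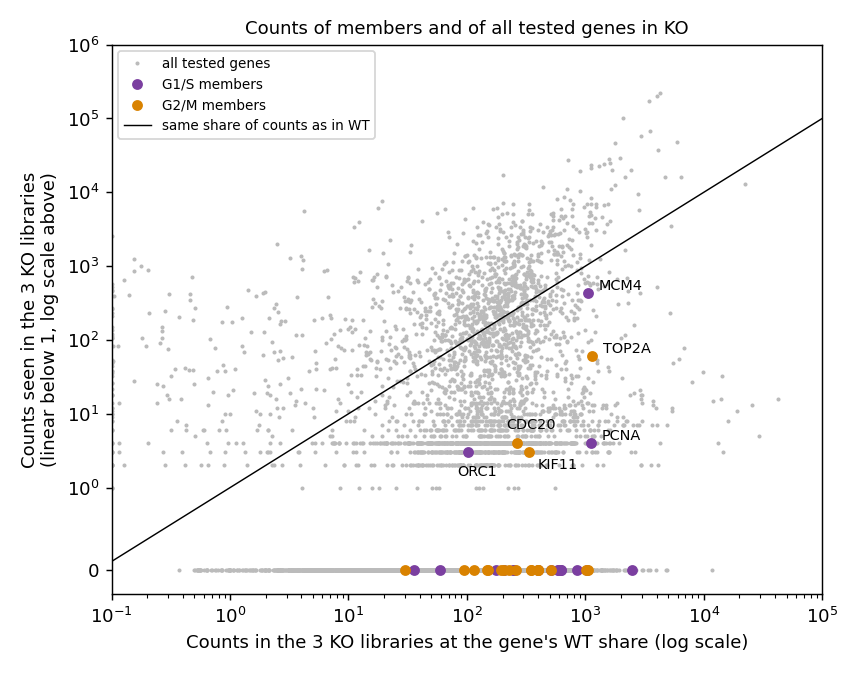
Each point is a gene. The horizontal axis gives the counts it would have over the 3 KO libraries at its WT share (log scale, genes below the axis minimum drawn at the left edge), and the vertical axis gives the counts seen. The 38 members (coloured) all lie under the line of equal share, 32 of them at 0, while many other tested genes (grey) lie above it.

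MCM4, 1 of the 6 subunits of the replicative helicase, was the one member that KO libraries held in quantity. MCM4 (ENSG00000104738, on the plus strand of hg38 chromosome 8 between 47960185 and 47978160) gave 136, 134 and 158 counts in KO, or 168, 155 and 218 CPM (counts scaled to the library total), against 25041, 28922 and 28144 counts in WT, or 403, 449 and 456 CPM. The 3 KO values lie close together and all below the WT values. The mean was 180.3 ± 33 CPM in KO and 436 ± 29 CPM in WT (SD, n = 3 each), 2.42-fold lower, with a fitted log2 change of -1.67 (SE 0.13, edgeR adjusted p = 2.5e-05). On the per-length scale it was at 16.3 ± 3.1 FPKM in KO and 40.6 ± 2.7 FPKM in WT.

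The size of this fall depends on scaling. The log2 change of MCM4 was -2.24 with median-ratio scaling and -1.28 with library totals alone. Scaling also moved the other genes with KO counts. The median over the 1496 tested genes with at least 30 KO counts was 0.57 with TMM factors, 0.01 with median-ratio scaling and 0.96 with library totals. Genes at 0 in KO are held by the prior count, and the median over all 10820 genes tested hardly moved (-12.42, -12.43 and -12.41).

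The neighbours of MCM4, chosen after their values were seen, differed from it. PRKDC, which encodes the catalytic subunit of DNA-dependent protein kinase, lies on the opposite strand 7 bases from MCM4 and had 2, 4 and 0 counts in KO against 20004, 22929 and 22181 in WT (146-fold lower by mean CPM). Without KO replicate 2 the fall was 279.8-fold and without KO replicate 3 it was 97.3-fold. UBE2V2, a ubiquitin-conjugating enzyme variant 30255 bases downstream, was 4.43-fold higher, at 369 to 456 CPM in KO and 86.2 to 93.7 CPM in WT.

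**Figure D2:**
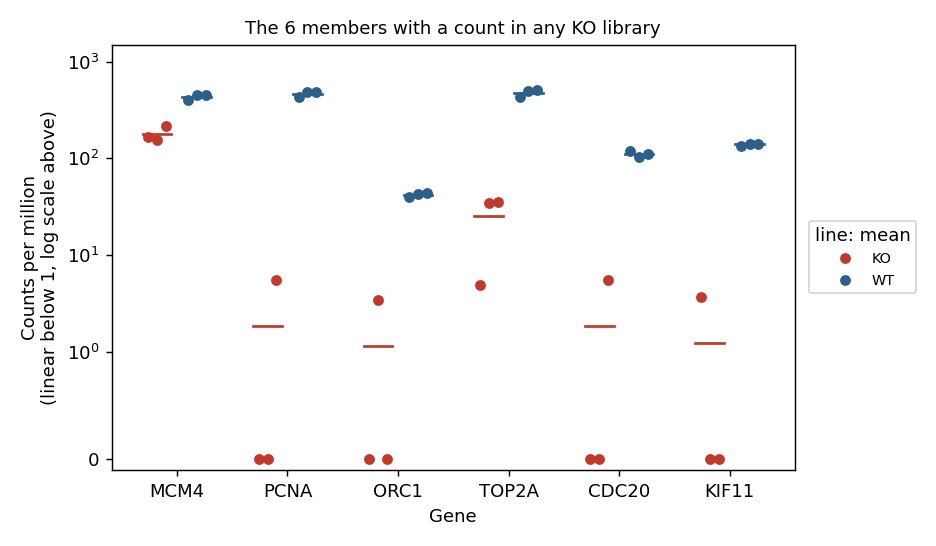
CPM in each library (linear below 1, log scale above) for the 6 members with any KO count, KO left of WT, with lines at the means. MCM4 is present in all 3 KO libraries near 180.3 CPM, TOP2A at 4.94 to 35.8 CPM, and each of the other four in a single KO library.

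The remaining subunits of the MCM helicase were at 0 in every KO library. MCM7 (chromosome 7, 100092233 to 100101409, minus strand) had 0, 0 and 0 counts in KO against 62981, 66452 and 64305 in WT. At its WT share 2467 counts would have been seen over the KO group, the most of any member. Setting KO at 3 counts in the 3 libraries pooled, which is 1.25 CPM, MCM7 was at least 822-fold lower. The same bound was 345-fold for MCM3, 209-fold for MCM6, 207-fold for MCM2 and 197-fold for MCM5. For genes at 0 in KO the fitted log2 change depends on the prior count, so bounds are given in its place, and they cover counting error only.

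The loaders of the helicase were nearly absent too. ORC1, the largest subunit of the origin recognition complex, had 0, 3 and 0 counts in KO, against 2460, 2796 and 2719 in WT. The pooled ratio was 33.9-fold lower (95% exact counting interval 11.6 to 164), and without KO replicate 2 ORC1 was at 0 in KO. CDC6 was at least 83.3-fold lower, its WT mean being 104 ± 3.6 CPM. CDT1 was at least 59.1-fold lower, with a WT mean of 73.9 ± 13 CPM.

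PCNA, the sliding clamp, had 0, 0 and 4 counts in KO against 27098, 31235 and 29785 in WT. Its pooled ratio was 281-fold lower (95% exact counting interval 109.6 to 1029.6), and it was at 0 in KO without KO replicate 3. The enzymes that supply DNA precursors were at 0 in all KO libraries. RRM2 and RRM1, the subunits of ribonucleotide reductase, were at least 282-fold and 170.3-fold lower, and TYMS, which makes thymidylate, at least 196-fold. TYMS had 0, 0 and 0 counts in KO against 16411, 15110 and 14705 in WT.

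Regulators of S phase entry had smaller shares of WT counts than RRM1, RRM2 and TYMS, and weaker bounds than these. E2F1, an activator of replication genes, was at least 134-fold lower (WT 167 ± 6.4 CPM) and its relative E2F2 at least 68.4-fold (85.6 ± 3.1 CPM). CDC25A, a phosphatase that activates cyclin-dependent kinases, was at least 81.3-fold lower. CCNE1, cyclin E1, had 0, 0 and 0 counts in KO against 1548, 1667 and 1475 in WT, and was at least 19.9-fold lower. CCNE2, cyclin E2, had none in KO against 824, 910 and 1062 in WT, and was at least 11.9-fold lower. These bounds follow the WT level and do not rank the genes by the size of their fall.

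Among the G2/M members, TOP2A alone was seen in all KO libraries. TOP2A, which untangles replicated DNA (ENSG00000131747, chromosome 17, 40388525 to 40417896, minus strand), had 4, 30 and 26 counts in KO against 26714, 32089 and 31167 in WT. KO replicate 1 was well below the other KO libraries, and none came near WT. The mean was 25.2 ± 18 CPM in KO and 478 ± 42 CPM in WT (SD, n = 3 each), 19.0-fold lower, or 13.5-fold without KO replicate 1. Its fitted log2 change was -4.63 (SE 0.52, edgeR adjusted p = 1.1e-04).

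CDC20 and KIF11 rested on single KO libraries. CDC20, the activator of the anaphase-promoting complex, had 0, 0 and 4 counts in KO against 7316, 6653 and 6822 in WT, a pooled ratio of 66.2-fold lower (95% exact counting interval 25.8 to 243). KIF11, the motor that pushes spindle poles apart, had 3, 0 and 0 counts in KO against 8412, 9115 and 8777 in WT, 112-fold lower (interval 38.2 to 541). Without KO replicate 3 CDC20 was at 0 in KO, as was KIF11 without KO replicate 1.

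The engine of mitotic entry was not detected in KO. CDK1, the mitotic kinase, was at least 116-fold lower (WT 146 ± 8.5 CPM). Its partners were at 0 as well, with bounds of 87.2-fold for CCNA2, 132-fold for CCNB1 and 64.4-fold for CCNB2. CCNB1 had 0, 0 and 0 counts in KO, against 10023, 10819 and 10151 in WT. CDC25C, the phosphatase that activates CDK1, had 798, 828 and 749 counts in WT, the fewest of the members, and was at least 10.1-fold lower. At its WT share, 30.2 counts would have been seen over the KO group and 9.15 to 10.9 in each KO library.

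Mitotic kinases, the spindle checkpoint and the centromere gave the same result. PLK1, AURKB and AURKA were at least 132-fold, 50.6-fold and 49.2-fold lower. BUB1B and BUB1, which act in the spindle checkpoint, were at least 116-fold and 68.6-fold lower. BIRC5 (survivin), which works with AURKB at the centromere, was at least 132-fold lower, and CENPA, the histone variant that marks centromeres, at least 31.5-fold. CENPF was at least 341-fold lower and the motor CENPE at least 38.6-fold, with 0, 0 and 0 counts in KO against 2480, 3268 and 3344 in WT. TPX2, which activates AURKA on the spindle, had none in KO against 13244, 13572 and 13619 in WT (at least 172-fold lower), and the cytokinesis motor KIF20A was at least 76.0-fold lower. MKI67, the antigen scored as Ki-67, was at least 353-fold lower, its WT mean being 441 ± 19.7 CPM.

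Reads shared with overlapping genes could blur these counts. Another listed gene overlaps 18 of the 38 members, and whether counting used strand is not stated in the sources used here, so reads in such overlaps are uncertain. Only 3 overlapping genes had a KO count, and the member was at 0 in each case. They were BRD8 beside KIF20A, with 76, 66 and 73 KO counts, FAM53C beside CDC25C and INTS8 beside CCNE2. Of the 5 members with a copy named after them as a pseudogene, no copy had a KO count.

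The promoters of the members differ in their letters between the G1/S and G2/M groups. The members were chosen by name, not by promoter. RefSeq promoter windows (GRCh38.p14, 250 bases before to 50 after a start) matched 32 members, with 19 windows of 15 G1/S genes and 22 windows of 17 G2/M genes. Motifs of 3 kinds were searched on both strands. The cell cycle homology region (CHR), bound in human cells by the DREAM and MuvB complexes, was taken as TTTGAA or TTCGAA. It was in 63.6% of G2/M windows (14 of 22), in 10.5% of G1/S windows (2 of 19) and in 16.4% of all 34796 windows. The E2F-type site, taken as TTTCGCGC, TTTGGCGC, TTTCCCGC or TTTGCCGC, was in 13.6% of G2/M windows (3 of 22), in 57.9% of G1/S windows (11 of 19) and in 3.30% of all windows. CCAAT, the box bound by NF-Y, was in 81.8% of G2/M windows, 73.7% of G1/S windows and 34.6% of all windows. CHR and CCAAT stood together in 59.1% of G2/M windows, 10.5% of G1/S windows and 6.40% of all. Some genes have more than 1 window, and these can overlap. Counted by gene, a CHR was in 12 of 17 G2/M genes, 2 of 15 G1/S genes and 5299 of all 27058 genes. An E2F-type site was in 2 G2/M genes, 11 G1/S genes and 1078 of all genes. CCNE2, MCM4, MCM5, AURKA, BIRC5 and TPX2 matched no window. Motifs were searched independently of each other, so matches may overlap. A match is a description of the letters, not evidence of binding.

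Stretches of 150 bases, 120 before and 30 after the start, are shown as examples. They were picked after the matches were known, for holding a CHR with CCAAT or an E2F-type site, and do not stand for the groups. In all of them capitals mark every match to the motifs searched. In the G2/M promoters of CCNB2 (chr15:59105026-59105175, plus strand), PLK1 (chr16:23678769-23678918, plus strand) and CDC20 (chr1:43358861-43359010, plus strand), the capitals are CCAAT boxes and a CHR. In CCNB2 and PLK1 the CHR begins 29 bases before the start, downstream of the CCAAT boxes.
CCNB2: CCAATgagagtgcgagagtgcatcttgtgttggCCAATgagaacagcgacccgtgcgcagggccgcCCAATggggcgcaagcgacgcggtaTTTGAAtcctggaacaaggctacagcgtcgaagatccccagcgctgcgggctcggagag
PLK1: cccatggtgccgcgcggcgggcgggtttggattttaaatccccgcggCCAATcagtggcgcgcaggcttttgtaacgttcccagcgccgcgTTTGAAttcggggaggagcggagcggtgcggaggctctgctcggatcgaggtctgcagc
CDC20: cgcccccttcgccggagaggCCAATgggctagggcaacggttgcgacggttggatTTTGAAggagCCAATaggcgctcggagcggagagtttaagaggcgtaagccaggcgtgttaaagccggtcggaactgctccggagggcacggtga
In the G1/S promoters of MCM2 (chr3:127598291-127598440, plus strand), E2F1 (chr20:33686356-33686505, minus strand) and CDC6 (chr17:40287759-40287908, plus strand), the capitals are E2F-type sites and, in E2F1 and CDC6, CCAAT boxes as well. MCM2 carries a pair that overlaps on opposite strands, and E2F1, whose product binds such sites, carries a pair in its own promoter.
MCM2: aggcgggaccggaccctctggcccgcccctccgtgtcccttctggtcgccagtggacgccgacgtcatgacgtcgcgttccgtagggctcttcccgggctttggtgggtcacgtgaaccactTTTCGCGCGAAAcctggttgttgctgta
E2F1: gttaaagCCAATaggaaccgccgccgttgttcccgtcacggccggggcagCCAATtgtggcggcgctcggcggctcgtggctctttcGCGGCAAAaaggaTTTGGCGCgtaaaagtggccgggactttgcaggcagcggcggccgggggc
CDC6: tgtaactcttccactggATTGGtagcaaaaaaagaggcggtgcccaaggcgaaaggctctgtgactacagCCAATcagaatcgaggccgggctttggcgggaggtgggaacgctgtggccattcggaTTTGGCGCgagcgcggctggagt

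Across the WT libraries, where all 38 members had counts, the set lay high in the transcriptome. The median member was at 31.4 FPKM, above 89.8% of the genes tested, whose median was 7.24 FPKM in WT. G1/S members had a median of 37.9 FPKM (range 3.09 to 306) and G2/M members one of 30.6 FPKM (range 3.46 to 68.7). These are levels per length, and they differ between genes by how long the authors took each gene to be.

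At the top of the WT order stood PCNA, at 285, 317 and 315 FPKM in the 3 WT libraries. MCM7 followed at 187, 191 and 192 FPKM, then MCM3 at 103, 112 and 111 and TYMS at 93.0 ± 6.1 FPKM (SD, n = 3), with 88.9 and 90.0 in WT replicates 2 and 3 and more in replicate 1. These 4 G1/S genes were each separated from the next by ranges that did not overlap. The highest G2/M member was TOP2A, at 61.8, 71.8 and 72.5 FPKM, whose range overlapped that of CCNB1 at 60.8, 63.4 and 61.8.

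Next among G2/M members came TPX2, at 54.2, 53.7 and 56.0 FPKM, and CDC20, at 53.7, 47.1 and 50.3. At the low end, CCNE1 was at 9.28, 9.64 and 8.86 FPKM, CENPE at 3.68, 4.69 and 4.99, CDC25C at 3.53, 3.54 and 3.32 and CCNE2 at 2.76, 2.94 and 3.57. CDC25C and CCNE2 could not be ordered by their ranges. Of the 37 neighbouring pairs in the order, 23 had WT ranges that overlapped, so most single steps in the middle of the order lie within the spread of the libraries.

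**Figure D3:**
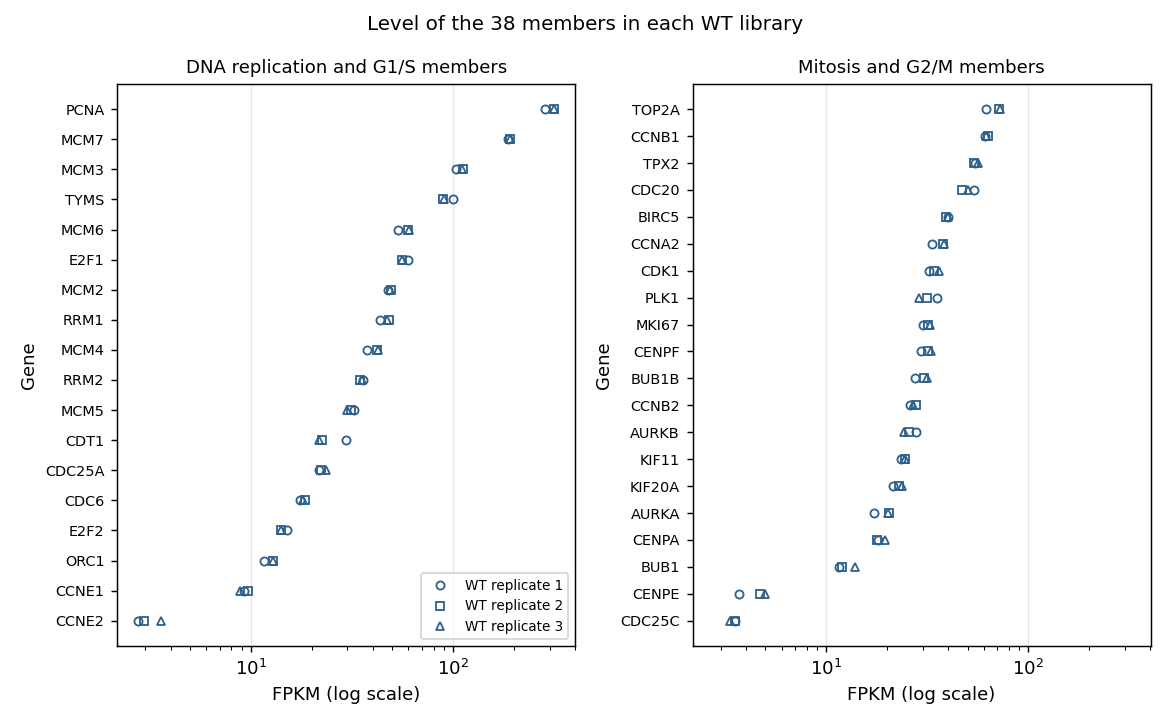
FPKM (log scale) of the 38 members in each of the 3 WT libraries, G1/S members left and G2/M members right, ordered by mean. PCNA leads at a mean of 306 FPKM and CCNE2 is lowest at 3.09, and the 3 libraries lie close together for most genes.

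The 6 MCM genes encode subunits present once each in the helicase, yet their WT levels spanned 6.11-fold in FPKM. MCM7 averaged 190.2 ± 2.5 FPKM, MCM3 109 ± 4.9, MCM6 57.9 ± 4.0, MCM2 48.4 ± 0.89, MCM4 40.6 ± 2.7 and MCM5 31.1 ± 1.2 (SD, n = 3). Part of this order depends on the length in the FPKM denominator. MCM4 and MCM3 had like shares of WT counts, 436 ± 29 and 432 ± 19.9 CPM, but the length implied by the ratio of CPM to FPKM was 10735 to 10760 bases for MCM4 and 3971 to 3980 for MCM3. MCM7 also carries 3 microRNA genes, MIR25, MIR93 and MIR106B, inside its span, which had 9 to 138 counts per WT library and 0 in KO.

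Between WT libraries the members varied little. The median coefficient of variation in CPM was 5.26% over all 38 members, 4.35% in G1/S and 5.81% in G2/M, beside 6.51% over all genes tested. BIRC5 varied least (1.07%), with MCM7 at 1.43%. CDT1 varied most (17.6%), at 88.9 CPM in WT replicate 1 against 67.7 and 65.2 in the others. CENPE was next (15.5%), at 39.9 CPM in WT replicate 1 against 50.8 and 54.1, followed by CCNE2 (13.9%), whose high value of 17.2 CPM was in WT replicate 3.

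Small differences remained among the 3 WT libraries, and whether they exceed those of other genes was not tested. WT replicate 1 had the lowest CPM for 24 of the 38 members, 11 of G1/S and 13 of G2/M, where it was lowest for 45.3% of all genes tested. WT replicate 3 was highest for 18 members, 6 of G1/S and 12 of G2/M, against 35.8% of all genes tested. In G1/S each WT library was highest for 6 members. Some mitotic genes went against this, with PLK1 at 183, 163 and 150.3 CPM and AURKB at 67.7, 62.7 and 59.4 CPM in WT replicates 1, 2 and 3, both highest in replicate 1.

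**Figure D4:**
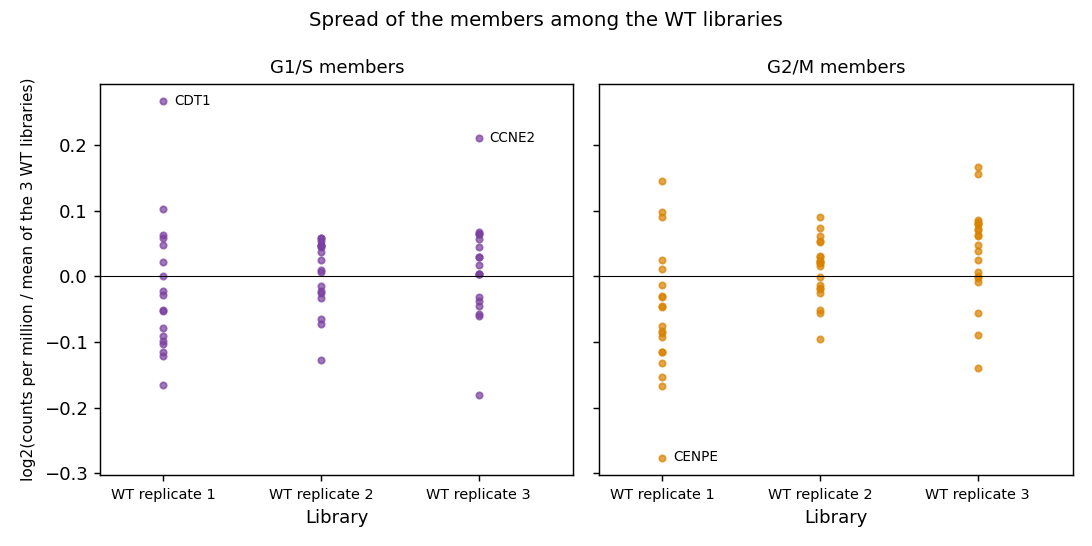
The log2 of each member's CPM over its mean in the 3 WT libraries, G1/S members left and G2/M members right. Most points lie near 0, CDT1 is high and CENPE low in WT replicate 1, and more G2/M members lie above 0 in WT replicate 3 than in replicate 1.

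Genes around the members in the same pathways were mostly lower as well. Over 7 further lists of cell cycle genes, 168 of 175 tested genes were called lower (96.0%, against 88.0% of all genes tested), 5 higher and 2 in neither direction. No KO count was found for 138 of them (78.9%), against 71.3% of all genes tested. The lists were chosen with earlier results of these data known.

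Of 44 tested origin and fork genes, 43 were lower and 39 were at 0 in KO, against 88.0% and 71.3% of all genes tested. FEN1, which trims Okazaki fragments, was at least 181-fold lower and RPA2, which coats single-stranded DNA, at least 88.1-fold. ORC5, chosen after its values were seen, was the exception, at 0, 40 and 0 counts in KO against 1835, 2065 and 1823 in WT (edgeR adjusted p = 0.20). Without KO replicate 2 it was at 0 in KO and called lower. All 9 tested genes of nucleotide supply were lower, with the purine enzyme PAICS at least 283-fold and thymidine kinase TK1 at least 81.0-fold.

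Of 45 spindle, kinetochore and cytokinesis genes, all were lower and 40 were at 0 in KO, against 88.0% and 71.3% of all genes tested. UBE2C, the ubiquitin-conjugating enzyme of the anaphase-promoting complex, was at least 101-fold lower. The motor KIFC1 was 81.5-fold lower with 0, 4 and 0 KO counts. All of them came from KO replicate 2.

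Of 18 condensin and cohesin genes 16 were called lower and 2 higher, shares near the 88.0% and 7.63% over all genes tested. In KO 10 of the 18 were at 0, against 71.3% of all genes tested. Among the 16 is PDS5A, a cohesin regulator chosen after its values were seen, whose mean CPM was higher in KO, at 201 ± 11 against 185 ± 15 in WT. Its call depends on scaling. The log2 change was -0.27 with TMM factors (edgeR adjusted p = 0.048) and -0.83 with median-ratio scaling (edgeR adjusted p = 1.1e-04). With library totals it was 0.12 and not called (edgeR adjusted p = 0.34). Over all genes 14 were called lower with a higher mean CPM in KO, 0 of them members. NIPBL, the cohesin loader, was at 705 ± 90.3 CPM in KO and 82.8 ± 13 CPM in WT, 8.52-fold higher (log2 change 2.70, SE 0.17, edgeR adjusted p = 1.3e-05). STAG2, a cohesin subunit, was at 745 ± 126 CPM in KO and 131 ± 15 CPM in WT, 5.68-fold higher. SMC1A, a core cohesin ATPase, was 14.4-fold lower on 22, 17 and 21 KO counts, and SMC4, a condensin ATPase, 70.6-fold lower on 0, 4 and 7. Without KO replicate 1 SMC4 was 47.0-fold lower and without KO replicate 3 145-fold.

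Within the anaphase-promoting complex 15 of 16 tested genes were lower and 12 were at 0 in KO, against 88.0% and 71.3% of all genes tested. UBE2S was at least 250.5-fold and CDC16 at least 72.5-fold lower. ANAPC5, a scaffold subunit, was instead at 753 ± 144 CPM in KO and 129 ± 2.1 CPM in WT, 5.82-fold higher (log2 change 2.14, SE 0.14, edgeR adjusted p = 1.4e-05).

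Of 21 G1 cyclins, kinases and inhibitors all were lower and 14 were at 0 in KO, against 88.0% and 71.3% of all genes tested. CCND1, cyclin D1, had 3, 0 and 4 counts in KO and was 542-fold lower than its 1666 ± 50.3 CPM in WT. Without KO replicate 3 it was 899-fold lower. CKS2, a small kinase-binding protein, was 10.1-fold lower on 5, 2 and 6 KO counts.

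Of 22 RB, E2F, DREAM and FOXM1 genes 19 were lower, 2 higher and 1 in neither class, and 15 had no KO count. These shares lie near those over all genes tested. MYBL2 and FOXM1, activators of G2/M genes, were 178-fold lower on 0, 0 and 4 KO counts and at least 168-fold lower. Without KO replicate 3 MYBL2 was at 0 in KO. LIN54, the MuvB subunit that binds the CHR, averaged 166 ± 16 CPM in KO and 29.2 ± 3.0 CPM in WT, 5.68-fold higher (log2 change 2.12, SE 0.13, edgeR adjusted p = 1.4e-05). MAX, the partner of MYC proteins, was 11.2-fold higher at 561 ± 81 CPM in KO and 50.2 ± 3.1 in WT. E2F3, chosen after its values were seen, averaged 225 ± 32 CPM in KO and 156 ± 17 CPM in WT, and its fitted change of 0.13 on the log2 scale (SE 0.13) missed the threshold (adjusted p of edgeR 0.36). The sign depended on scaling, with -0.43 under median-ratio factors (edgeR adjusted p = 0.0039) and 0.52 with library totals alone (edgeR adjusted p = 0.013).

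**Figure D5:**
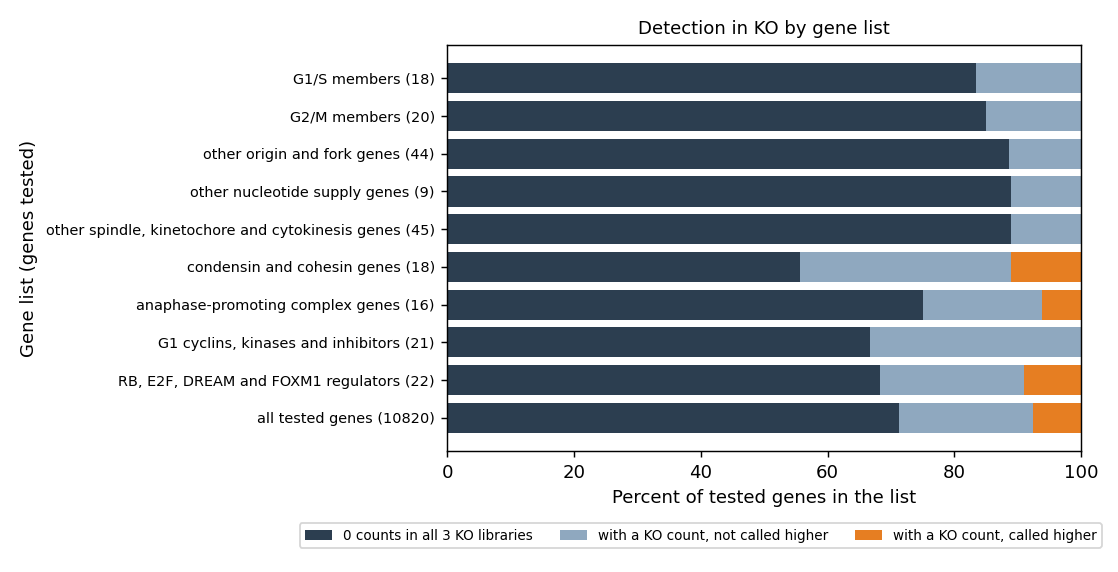
Percent of the tested genes of the members and of each of the 7 other cell cycle lists, and of all tested genes, that had 0 counts in all 3 KO libraries (dark), a KO count without being called higher (pale) or a KO count and a call of higher (orange). No member falls in the last class, and among the lists drawn condensin and cohesin genes have the smallest share at 0, 10 of 18.

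Markers of the cell line and of other cell types were measured beside these genes. Of 9 tested adrenergic neuroblastoma markers 9 were lower and 5 were at 0 in KO, against 88.0% and 71.3% of all genes tested. The adrenergic markers summed to 674 to 745 CPM in KO libraries and 6255 to 7149 CPM in WT. DBH, which makes noradrenaline, was at 0 in KO and 1986 ± 139 CPM in WT, while the regulator HAND2 averaged 293 ± 34 CPM in KO and 945 ± 41 CPM in WT. The 5 epithelial markers summed to 17.3 to 68.4 CPM in KO and 3.53 to 35.6 CPM in WT. Of the 3 tested none was called (KRT5 log2 change 1.78, edgeR adjusted p = 0.33, KRT19 0.97, adjusted p = 0.45), and 0 of 3 also had an unadjusted p under 0.05. Without WT replicate 3, where KRT5 had its highest count, KRT5 was called higher at 5.55. Blood and microglia markers summed to 0 to 4.64 CPM in KO and 0.0466 to 0.194 CPM in WT. Fibroblast and endothelial markers summed to 33.6 to 95.1 CPM in KO and 68.4 to 71.5 CPM in WT, with COL1A1 called higher at 47.8 ± 27 CPM in KO and 9.37 ± 2.1 in WT, PDGFRB called lower on 4, 0 and 0 KO counts (at 0 in KO without KO replicate 1) and COL1A2 not called (log2 change -0.11, edgeR adjusted p = 0.82). The part of depth, composition or other cells in the fall of the members was not tested.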

How the data were processed

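Poly(A) RNA of 3 KO and 3 WT libraries of SH-SY5Y cells was measured. Per the file headers, the authors deposited whole-number counts per gene, not normalized, and FPKM values, scaled by gene length and mapped fragments. Tools listed in the submitters' processing notes are HISAT2 2.0.4, StringTie 1.3.4d, cutadapt 1.9 and DESeq2, and the build is hg38; their roles and order are not stated. The annotation release is not given in the sources used here. Columns were matched by library name and groups by title.

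Counts of the 10820 genes averaging 1 FPKM or more were tested with edgeR 4.0.16 (R 4.3.3, quasi-likelihood, TMM factors, genotype only, KO minus WT). P-values were adjusted over all of them by Benjamini-Hochberg at 0.05. The fit was first tried on simulated counts in which most genes were unchanged. That trial does not cover libraries in which most genes are lower, as here. Each standard error was derived from the log2 change and its F statistic. CPM use the library total, and a fold is one mean CPM over the other. Bounds for genes at 0 in KO use 3 counts over the KO group, and pooled ratios have 95% Clopper-Pearson intervals, which cover counting error only. In a single library 3 counts stood for 3.48 to 4.13 CPM (KO) or 0.0466 to 0.0486 CPM (WT). Replicate pairs differed by a chi-square of 15.5 to 41.7 per degree of freedom, so no library was counted more than once.

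The members and lists were chosen with earlier results of these data known. Named were all members, with values by library for those with a KO count and for the 4 highest and 2 lowest of each group by WT FPKM. From each other list came the 2 of highest WT FPKM and up to 4 called higher, and genes outside the rule are marked in the text. Of the marker symbols, 3 had no row under the name used. Alternatives were median-ratio scaling, library totals, no filter, a mean of 5 FPKM, DESeq2 1.42.0, limma 3.58.1 on log2(FPKM + 1) and log2(FPKM + 0.1), a replicate block and leaving out each library. Python 3.11.15, numpy 2.4.6, scipy 1.17.1, pandas 2.3.3 and matplotlib 3.10.9 did the rest.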

Additional observations from a re-analysis of the deposited data

How the results depend on the processing

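All 38 members stayed lower and called in each of the 13 settings other than the replicate block in which they were tested, 490 values in all with a largest adjusted p of 0.0035 (CDC20, limma on log2(FPKM + 0.1)). A mean of at least 5 FPKM left 16 G1/S and 18 G2/M members to test, all lower. That filter gave 4504 calls among 4719 genes, 653 higher and 3851 lower, because fewer genes were tested. No filter gave 14795 calls among 32862 genes, 809 higher and 13986 lower, a smaller share of the genes tested. With the replicate number as a block, 741 genes were called, 452 higher and 289 lower (61.0% higher, against 7.98% without the block). Of the members 3 of G1/S (MCM4, MCM7 and PCNA) and 0 of G2/M were then called (largest edgeR adjusted p 0.11), with all 38 log2 changes below 0. By edgeR the G2/M members had a call in all 20 without the block, and by DESeq2 as well; under the block 18 of them had an unadjusted p under 0.05. Same-numbered KO and WT libraries did not deviate together (r = 0.015, -0.028 and 0.024 over 1513 genes). Over all pairs of a KO and a WT library r ran from -0.042 to 0.03, so the numbers were not taken to pair the libraries.

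Among other named genes, directions turned for E2F3 (-0.43 with median-ratio scaling and with DESeq2, -0.01 with no filter, -0.20 at a mean of 5 FPKM), PDS5A (0.12 with library totals, 0.08 and 0.09 with limma), COL1A2 (0.29 with library totals, 0.01 with limma on log2(FPKM + 1)) and KRT19 (-0.17 with limma on log2(FPKM + 0.1) and with the replicate block). Leaving out 1 library at a time gave -1.12 to 0.29 for COL1A2 and -1.09 to 2.08 for KRT19. PDS5A lost its call without KO replicate 1 or 3 or WT replicate 2 or 3 (-0.29 to -0.19). The cause was not tested. Depth limits KO values, since 1 count there stands for more than 1 CPM. The kind of library and the source of the replicates were not tested.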
